A study of Homo sapiens with 40 samples.

Results

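FOXO1, FOXO3 and FOXO4, forkhead transcription factors that act below phosphoinositide 3-kinase (PI3K), were followed together with 7 genes known as FOXO targets, KLHL24, YPEL3, CCNG2, BCL6, PINK1, FBXO32 and KLF6. These 10 genes, of 19775 named by a single symbol on the array, were chosen by name with results of the same arrays against DMSO in view. Every probe set with 1 of these symbols alone was taken, which gave 37 of 41097, and 34 of them passed the filter on dim signal. The cells were A2058, an established human melanoma line, grown in high-glucose medium with serum and exposed once, for 24 h, to a PI3K inhibitor or to the solvent DMSO. The 10 groups were BKM120 at levels labelled IC30, IC50 and IC90 (max), BEZ235 at IC50, IC90 and max, GDC0941 (spelled GCD0941 in the labels) at IC50, IC90 and max, and DMSO, with 4 biological replicates each and 40 one-colour arrays in all. The labels state neither molar doses nor which response the IC names describe, and the BKM120 group labelled IC90 (max) is compared with the IC90 groups of the other compounds.

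FOXO factors are switched off by growth signals. PI3K activates the kinase AKT, AKT phosphorylates FOXO proteins, and the phosphorylated proteins are held in the cytoplasm by 14-3-3 proteins. When the pathway is blocked, FOXO proteins enter the nucleus and turn on genes that slow the cell cycle, break down protein, protect against oxidative stress and raise the receptors upstream of PI3K itself. FOXO1 and FOXO3 are among the genes that FOXO proteins can turn on, so their transcripts are part of this circuit. BKM120 (buparlisib) and GDC0941 (pictilisib) inhibit class I PI3K, and BEZ235 (dactolisib) inhibits both PI3K and the kinase mTOR. An array measures transcripts, and the phosphorylation and the place of FOXO proteins in the cell were not measured by it.

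FOXO proteins bind the letters GTAAACA, and with lower affinity CAAAACA, so 300-base promoter windows (250 bases before to 50 after a start, RefSeq, GRCh38.p14) were searched for both words on both strands. Windows were at hand for 8 of the 10 genes, 12 windows in all, and those of PINK1 and FBXO32 are not analysed here. GTAAACA was found in 2 of these windows and in 3.42% of all 35116 windows of the same length, and CAAAACA in 1 of these windows and in 4.92% of all. The windows that hold a match are printed 5′ to 3′ on the strand of the gene, with the match in capitals. The YPEL3 window lies at chr16:30096164-30096463 on the minus strand, with the match beginning at the start site itself (base 251 of the window). The FOXO4 window is chrX:71095601-71095900 on the plus strand, with the match at base 274. The KLHL24 window is chr3:183635373-183635672 on the plus strand, and it holds CAAAACA on the opposite strand, read here as TGTTTTG from base 219.
YPEL3: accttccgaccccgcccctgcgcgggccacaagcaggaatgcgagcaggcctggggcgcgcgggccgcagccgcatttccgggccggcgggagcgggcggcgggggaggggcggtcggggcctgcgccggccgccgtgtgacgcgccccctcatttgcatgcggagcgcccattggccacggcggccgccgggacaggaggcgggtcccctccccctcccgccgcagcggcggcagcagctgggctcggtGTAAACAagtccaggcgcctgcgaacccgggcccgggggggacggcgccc
FOXO4: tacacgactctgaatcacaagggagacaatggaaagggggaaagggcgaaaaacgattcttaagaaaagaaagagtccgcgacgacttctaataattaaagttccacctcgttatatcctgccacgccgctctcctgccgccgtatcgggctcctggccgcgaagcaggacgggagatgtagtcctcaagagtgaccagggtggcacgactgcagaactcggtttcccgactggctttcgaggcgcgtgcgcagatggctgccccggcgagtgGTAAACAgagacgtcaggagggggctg
KLHL24: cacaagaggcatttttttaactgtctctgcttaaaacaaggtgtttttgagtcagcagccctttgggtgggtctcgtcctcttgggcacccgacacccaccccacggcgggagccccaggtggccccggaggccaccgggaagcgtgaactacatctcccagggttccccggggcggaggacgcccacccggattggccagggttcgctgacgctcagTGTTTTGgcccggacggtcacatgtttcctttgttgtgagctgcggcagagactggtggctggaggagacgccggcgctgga
The other 9 windows, of FOXO1, FOXO3, CCNG2, BCL6 and KLF6, held neither word. A match of letters is a description and not a binding site, and no match says only that these words are not in these windows.

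The arrays were alike in scale, and 1 of them stood apart. In BEZ235 IC50 replicate 3 the ratio of the 3′ to the 5′ control probe set was 3.44 for GAPDH and 27.2 for ACTB, against 1.05 to 1.26 and 1.58 to 2.33 in the other 39 arrays, and its mean correlation with its group was 0.946, against 0.976 to 0.995. A high ratio of this kind is a known sign of shortened RNA. Values that rest on BEZ235 IC50 are therefore also given without this array where leaving it out moved them. Melanocytic markers (PMEL, MLANA, TYR, TYRP1, SOX10 and MITF) had summed intensities of 6089 to 7932 in treated arrays against 4885 to 5048 in DMSO arrays. MLANA was the dimmest of them, with a mean of 36.0 in DMSO. Summed markers of other cell types were 40.8 to 118 in treated arrays against 61.6 to 81.5 in DMSO arrays, and those of BEZ235 IC90 (44.7 to 51.3) and BEZ235 max (40.8 to 54.3) lay wholly below DMSO. COL1A1, a fibroblast collagen, averaged 17.1 in BEZ235 IC90 and 15.6 in BEZ235 max, against 43.2 in DMSO, with a log2 difference of -0.88 (SE 0.15, adjusted p = 5.81e-06) for BEZ235 max. PECAM1, an endothelial marker, read 9.5 to 22.5 over the 40 arrays. It was called lower with GDC0941 max, -0.29 (SE 0.11, adjusted p = 0.0412). PTPRC, CD3E, EPCAM, KRT5, CDH5 and ALB read 8 or less on every array. The rise of the melanocytic sum was common to all 9 treatments, and neither its part nor that of the lower COL1A1 in the results was tested. Fewer cells of a type and less RNA per cell cannot be told apart in bulk RNA.

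Against DMSO, between 30 and 34 of the 34 tested probe sets had a higher mean in each treatment. Differences are log2 differences of group means of log2(intensity + 16), which understates changes of dim genes, from 1 linear model over all 40 arrays, and the threshold of the fit was an adjusted p under 0.05. The values against DMSO were used in choosing the genes, so they are given as a description. All 9 treatments are set against the same 4 DMSO arrays. With BKM120 at IC30, 18 passed the threshold higher and 1 lower, where 8.5% of all 24658 tested probe sets passed higher and 6.98% lower. BKM120 IC50 also gave 18 higher and 1 lower (8.47% and 6.64% of all), and BKM120 IC90 (max) gave 27, all higher (15% and 15.6%). With BEZ235 all that passed were higher, 20 at IC50 (18.5% of all were higher and 21.8% lower), 29 at IC90 (24.7% and 23.5%) and 30 at the maximum (26.3% and 24.8%). With GDC0941, 13 were higher and 1 lower at IC50 (6.49% and 4.93% of all), 17 were higher at IC90 (11.2% and 9.31%) and 31 were higher at the maximum (20.1% and 18.1%). The median difference of the 34 at the highest level was 0.52 for BKM120, 0.70 for BEZ235 and 0.58 for GDC0941, while the median over all tested probe sets was -0.01, 0.00 and 0.01. The lower probe set was in each case that of BCL6. Without BEZ235 IC50 replicate 3, the 34 probe sets gave 28 past the threshold in place of 20 at BEZ235 IC50 and 23 in place of 14 at GDC0941 IC50. That fit has a smaller spread for all probe sets, and the share of all tested that passed was 38.1% at BEZ235 IC50 and 18.9% at GDC0941 IC50, with a range of 18.9% to 58.7% over the 9 treatments.

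**Figure D1:**
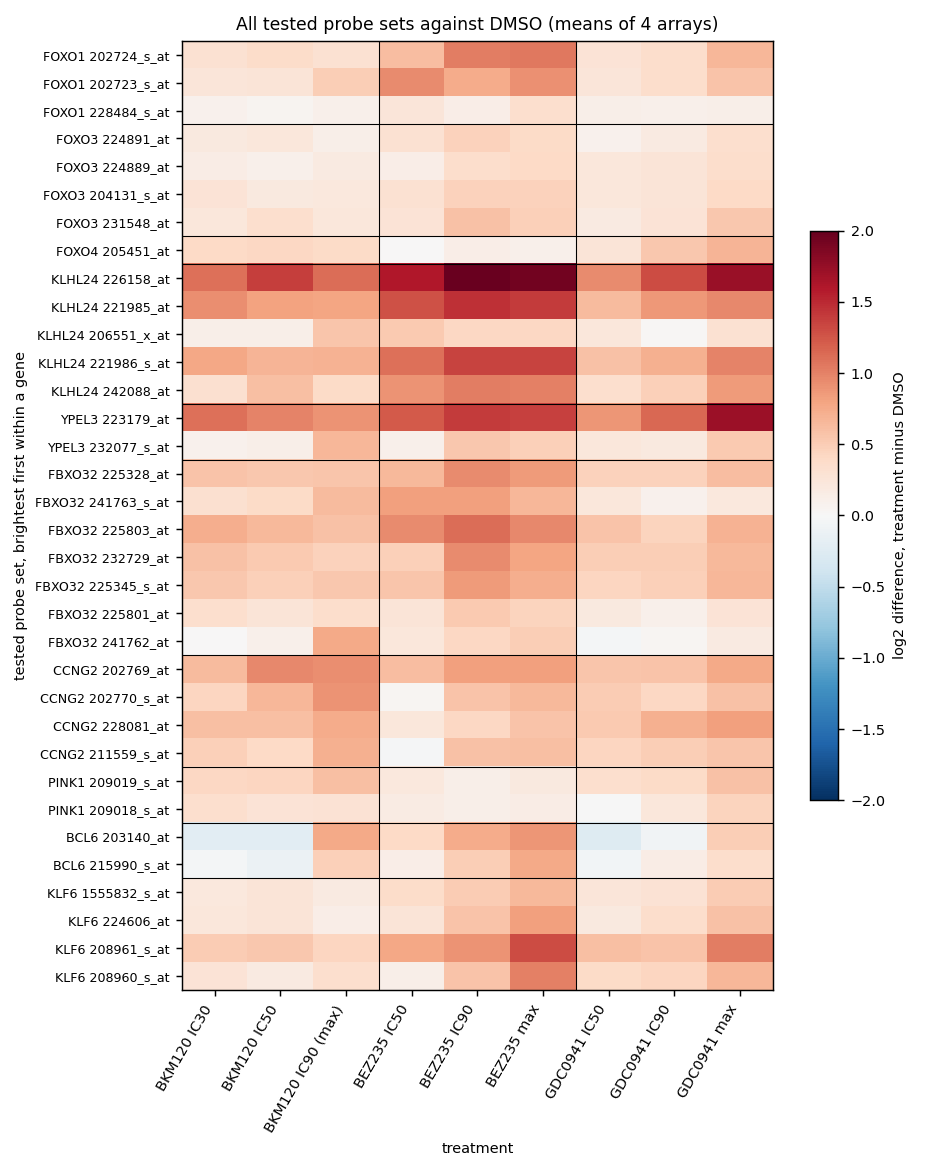
Log2 difference from DMSO of each tested probe set of the 10 genes (34 rows, grouped by gene) under each of the 9 treatments (columns, with the levels of each compound from low to high), colour scale from -2 to 2. Red fills most of the map, the brightest probe sets of KLHL24 and YPEL3 hold the deepest colour, and blue appears in BCL6 at the lower levels of BKM120 and GDC0941.

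FOXO1, on chromosome 13, was higher in every treated group than in DMSO, most of all with BEZ235. Values given for a gene are those of its brightest tested probe set unless another is named. In BKM120-treated cells its intensity was 379.5, 406, 446 and 424 at IC30, 485, 446, 381 and 413 at IC50, and 415, 414, 428 and 389.6 at IC90 (max). In BEZ235-treated cells it was 551, 537, 381 and 624 at IC50, 665, 696, 707 and 672 at IC90, and 709, 690.4, 713 and 709 at the maximum. In GDC0941-treated cells it was 456, 377, 392 and 392 at IC50, 377, 433, 454 and 448 at IC90, and 508, 552, 511 and 552 at the maximum, against 332, 353, 325 and 315 in DMSO. All 36 treated arrays were above the 4 DMSO arrays, BEZ235 at IC90 and at the maximum lay above every other array, and within BEZ235 IC50 the array that stands apart was the low one. The difference from DMSO (SE 0.09 for each) was 0.31, 0.36 and 0.30 along the levels of BKM120, 0.62, 1.02 and 1.06 along those of BEZ235, and 0.27, 0.35 and 0.66 along those of GDC0941. BEZ235 at the maximum is a 2.08-fold difference on this scale. Without the array that stands apart the BEZ235 IC50 value was 0.76, and the step to BEZ235 IC90 was 0.26 in place of 0.40. The dimmer FOXO1 probe sets did not show this step. With all arrays they gave -0.19 (SE 0.15) and -0.10 (SE 0.11), and neither passed the threshold. Their differences from DMSO were 0.94 and 0.24 at BEZ235 IC50, 0.75 and 0.14 at IC90, and 0.91 and 0.33 at the maximum.

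FOXO3, on chromosome 6, was bright and differed less. Its intensity averaged 1497 ± 56.5 in BEZ235 IC90, 1379 ± 39.9 in GDC0941 max and 1181 ± 72.3 in BKM120 IC90 (max), against 1087 ± 35.8 in DMSO (SD, n = 4 each). The difference from DMSO (SE 0.07) was 0.19, 0.23 and 0.12 along BKM120, 0.30, 0.46 and 0.38 along BEZ235, and 0.09, 0.18 and 0.34 along GDC0941. BEZ235 IC50 gave 0.35 without the array that stands apart. All arrays of 5 treated groups lay above the DMSO arrays, and those of BKM120 IC50, BKM120 IC90 (max), GDC0941 IC50 and GDC0941 IC90 overlapped them. A further 3 probe sets name FOXO3 together with its near copy FOXO3B and were left out.

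FOXO4, on chromosome X and measured by a single probe set, followed another order. With GDC0941 its intensity was 127, 127, 132 and 121 at IC50, 171, 142, 172 and 146 at IC90, and 187, 192, 189.9 and 141 at the maximum, so the group means went up with the level. In BEZ235-treated cells it was 154, 109.9, 56.7 and 116 at IC50, 133, 89.5, 132 and 109 at IC90, and 116, 115, 104 and 113 at the maximum, against 112, 95.3, 99.1 and 109 in DMSO. BEZ235 therefore overlapped DMSO at every level, while all GDC0941 arrays lay above it. The differences from DMSO (SE 0.15) were 0.40, 0.41 and 0.39 along BKM120, 0.00, 0.13 and 0.10 along BEZ235, and 0.25, 0.53 and 0.68 along GDC0941. In BKM120 IC90 (max) its intensity was 142, 133, 140.4 and 148, above all DMSO arrays. The lowest BEZ235 IC50 value belongs to the array that stands apart, and without it the BEZ235 IC50 difference was 0.24 in place of 0.00.

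**Figure D2:**
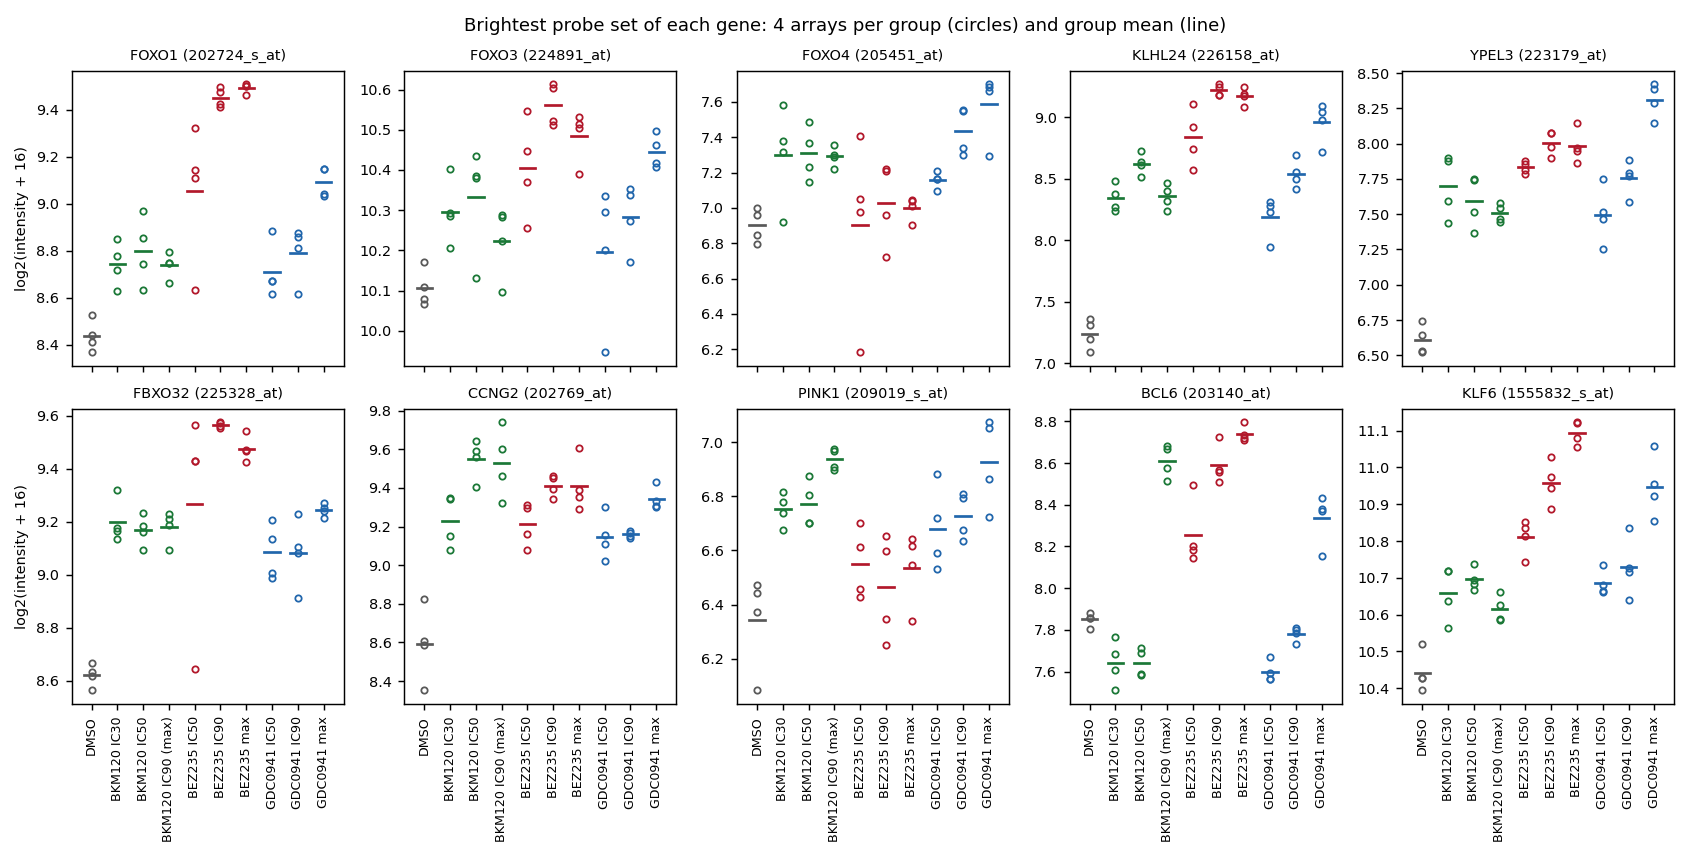
Level, as log2(intensity + 16), of the brightest tested probe set of each of the 10 genes (panels) in DMSO and in BKM120, BEZ235 and GDC0941 at increasing levels, with a circle for each of the 4 arrays of a group and a line at the group mean. DMSO is the lowest group mean in 9 of the 10 panels, and in the BCL6 panel it is the sixth highest. Probe sets differ in how they hybridise, so heights are not comparable between panels.

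KLHL24, on chromosome 3, encodes a kelch-like adaptor of a ubiquitin ligase. Its intensity was 317, 292, 286 and 341 at IC30, 408, 382, 350.1 and 377 at IC50, and 286, 338, 321 and 304 at IC90 (max) with BKM120. It was 469, 414, 366 and 536 at IC50, 602, 565, 593 and 565 at IC90, and 528, 569.7, 561 and 592 at the maximum with BEZ235. Cells given GDC0941 had 285, 294, 302 and 230.3 at IC50, 360.0, 326, 398 and 346 at IC90, and 489, 529.6, 406 and 512 at the maximum, against 149, 143, 130.4 and 120.3 in DMSO. Every treated array read higher than every DMSO array, and the BEZ235 IC90 arrays lay above all arrays outside BEZ235 max, whose own range was reached by 1 array of BEZ235 IC50 and 1 of GDC0941 max. The differences from DMSO (SE 0.09) were 1.10, 1.38 and 1.12 for BKM120, 1.60, 1.98 and 1.94 for BEZ235, and 0.95, 1.30 and 1.72 for GDC0941. With BKM120 the mean was highest at the middle level, and the highest level was -0.27 from IC50. BEZ235 IC90 amounts to a 3.95-fold difference from DMSO, and the BEZ235 IC50 value was 1.69 without the array that stands apart.

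YPEL3, on chromosome 16, belongs to the yippee-like family and restrains cell growth. With BKM120 it read 178, 222, 219.7 and 157 at IC30, 149, 167, 199.7 and 198 at IC50, and 170.4, 158, 161 and 175 at IC90 (max). With BEZ235 it read 204, 219, 209 and 216 at IC50, 254, 254, 236 and 223 at IC90, and 268, 216, 231 and 234 at the maximum. With GDC0941 it read 137, 199, 167 and 161 at IC50, 220.0, 205, 202 and 177 at IC90, and 319.6, 296, 327 and 268 at the maximum, against 90.9, 76.5, 75.9 and 83.8 in DMSO. In GDC0941 max, 3 arrays lay above every array of the other groups and the lowest was level with the highest of BEZ235 max, and no treated array came down to the DMSO range. Its differences from DMSO (1.23 for BEZ235 IC50 without the array that stands apart, SE 0.10 with it) were 1.09, 0.98 and 0.90 for BKM120, 1.22, 1.40 and 1.37 for BEZ235, and 0.89, 1.15 and 1.70 for GDC0941. The last is a 3.26-fold difference. Along the levels of BKM120 the steps of this brightest probe set were -0.11 and -0.09, and neither passed the threshold, so no trend is read from them. The dimmer YPEL3 probe set went the other way from BKM120 IC50 to IC90 (max), by 0.56 (SE 0.16), and passed it. With GDC0941 the means of the brightest probe set moved up, by 0.26 and then 0.55, and only the second step passed. The dimmer one gave -0.03 and 0.33 there, and neither passed.

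FBXO32 encodes atrogin-1, the muscle atrophy ubiquitin ligase subunit, and is the member with the most tested probe sets, 7. Its brightest probe set read 576, 568, 583 and 531 in BKM120 IC90 (max), 739, 736, 747 and 746 in BEZ235 IC90 and 602, 579, 589 and 594 in GDC0941 max, against 382, 363, 378 and 390.2 in DMSO. BEZ235 IC50 read 673, 674, 384 and 741, where the low value is the array that stands apart and falls in the DMSO range. The difference of BEZ235 IC50 from DMSO was 0.65 with that array and 0.85 without it, and the step to IC90 was 0.30 with and 0.09 without it. Along BKM120 the differences from DMSO (SE 0.10) were 0.58, 0.55 and 0.56, within 1 SE of each other, and along GDC0941 they were 0.46, 0.46 and 0.62. BEZ235 gave 0.94 at IC90 and 0.85 at the maximum.

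CCNG2, on chromosome 4, encodes cyclin G2, a cyclin that holds cells back from division. It read 783, 739, 661 and 757 in BKM120 IC50, its highest group, and 839.5, 759.9, 624 and 688 in BKM120 IC90 (max). It read 609.8, 764, 654 and 637 in BEZ235 max and 617, 675, 614 and 629.8 in GDC0941 max, against 374, 438, 369 and 311 in DMSO. All 9 treated groups lay wholly above DMSO. The differences from DMSO (SE 0.09) were 0.64, 0.96 and 0.94 along BKM120, 0.62, 0.82 and 0.82 along BEZ235, and 0.55, 0.57 and 0.75 along GDC0941. The BEZ235 IC50 value was 0.59 without the array that stands apart.

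PINK1, on chromosome 1, encodes the kinase that marks damaged mitochondria for removal. Its intensity was 109, 109.8, 103 and 104 in BKM120 IC90 (max), 83.8, 77.4, 82.1 and 64.9 in BEZ235 max and 100.4, 89.6, 117 and 119 in GDC0941 max, against 51.8, 72.8, 71.0 and 66.9 in DMSO. Each BEZ235 group overlapped DMSO, and no group of BKM120 or GDC0941 did. The differences from DMSO (SE 0.10) were 0.21, 0.12 and 0.19 for BEZ235, beside 0.41, 0.43 and 0.60 for BKM120 and 0.34, 0.39 and 0.59 for GDC0941. At BEZ235 IC50 it was 0.24 without the array that stands apart. PINK1 and FOXO4 were the 2 members whose BEZ235 groups all overlapped DMSO.

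BCL6, on chromosome 3, encodes a transcriptional repressor and was the only one of the 10 with groups wholly below DMSO. In BKM120-treated cells it read 166, 189.7, 179 and 202 at IC30, 194, 177, 190.1 and 176 at IC50, and 365, 349.5, 394 and 391 at IC90 (max). In BEZ235-treated cells it read 278, 275, 345 and 267 at IC50, 361, 348, 407 and 363 at IC90, and 429, 405, 402 and 409.9 at the maximum. In GDC0941-treated cells it read 174, 177, 187 and 173 at IC50, 208, 206, 197 and 205 at IC90, and 329, 315, 269 and 317 at the maximum, against 216, 216, 208 and 219.6 in DMSO. All arrays of BKM120 IC30, BKM120 IC50 and GDC0941 IC50 were under the DMSO arrays, GDC0941 IC90 overlapped them, and the other 5 groups were above them. The differences from DMSO (SE 0.07) were -0.21, -0.21 and 0.76 along BKM120, 0.41, 0.74 and 0.89 along BEZ235, and -0.25, -0.07 and 0.48 along GDC0941. The step of 0.97 between BKM120 IC50 and IC90 (max) was the largest step of any of the 10 genes, and the last GDC0941 step was 0.55. The array that stands apart was the high one of BEZ235 IC50, whose difference was 0.33 without it.

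KLF6, on chromosome 10, encodes a zinc-finger transcription factor with tumour-suppressor activity, and had the tightest replicates. It read 1566, 1519.8, 1605 and 1525 in BKM120 IC90 (max), 2114, 2214, 2148 and 2209 in BEZ235 max and 1836, 1968, 2116 and 1924 in GDC0941 max, against 1330.2, 1362, 1452 and 1361 in DMSO. All treated groups were wholly above DMSO. With BEZ235 the difference (SE 0.04) was 0.37, 0.51 and 0.65 along the levels, and 0.36 at IC50 without the array that stands apart. It was 0.22, 0.25 and 0.17 with BKM120 and 0.24, 0.29 and 0.50 with GDC0941.

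Ordered by mean level over the 10 groups, a BEZ235 group was highest for FOXO1, FOXO3, KLHL24, BCL6, FBXO32 and KLF6, GDC0941 max for FOXO4 and YPEL3, and a BKM120 group for CCNG2 and PINK1. Many neighbours in these orders could not be separated. Of the 9 gaps between neighbouring group means, the number wider than the pooled replicate SD was 5 for KLHL24 (pooled SD 0.13), 4 for BCL6 (0.09) and KLF6 (0.06), 3 for FOXO1 (0.13) and YPEL3 (0.14), 2 for FBXO32 (0.15), 1 for CCNG2 (0.12) and PINK1 (0.13), and 0 for FOXO3 (0.10) and FOXO4 (0.22). The widest gap was that between GDC0941 IC50 and DMSO for KLHL24, 0.95, and for YPEL3, 0.89. For FOXO1 the widest gap, 0.36, set BEZ235 IC90 above GDC0941 max. In runs of neighbours that lay within the pooled SD of each other, KLHL24 separated into BEZ235 IC90 and max, then GDC0941 max and BEZ235 IC50, then BKM120 IC50 and GDC0941 IC90, then BKM120 IC90 (max) and IC30, then GDC0941 IC50, then DMSO. BCL6 ran from BEZ235 max, to BKM120 IC90 (max) and BEZ235 IC90, to GDC0941 max and BEZ235 IC50, to DMSO and GDC0941 IC90, and last to BKM120 IC50, BKM120 IC30 and GDC0941 IC50. For FOXO1 the runs were BEZ235 max and IC90, then GDC0941 max and BEZ235 IC50, then all other treated groups, then DMSO. For YPEL3 they were GDC0941 max, then BEZ235 IC90 and max, then the other 6 treated groups, then DMSO. Without the array that stands apart, the gaps over the pooled SD were 4 for FOXO1, 1 for FOXO3, 5 for BCL6 and 4 for FBXO32, and the other 6 counts stayed as given. BEZ235 IC50 then lay above GDC0941 max for FOXO1 and FOXO3, and the widest FOXO1 gap, 0.29, was the one between GDC0941 max and BKM120 IC50.

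As a description over the 10 group means, which share the DMSO level and the same arrays, the patterns fell close to one another for some pairs and not for others. Pearson's r was 0.959 between FOXO1 and KLF6, 0.951 between FOXO1 and FOXO3, 0.951 between KLHL24 and FBXO32, and 0.932 between KLHL24 and YPEL3. FOXO4 and PINK1 had an r of 0.869 with each other and of -0.145 each with FOXO1. Without the array that stands apart these values were, in the same order, 0.945, 0.954, 0.948, 0.929 and 0.883, and those of FOXO4 and PINK1 with FOXO1 were -0.127 and -0.158. Among 12159 other genes, the pattern most like that of FOXO1 was MCOLN3 (r = 0.996), that of FOXO3 was MRNIP-DT (0.981), and that of FOXO4 was NTNG2 (0.955). KLHL24 was most like COA5 (0.989) and also near HBP1 (0.978), YPEL3 was most like GLUL (0.981), and CCNG2 was most like FUZ (0.921). The nearest genes to BCL6, PINK1, FBXO32 and KLF6 were RPGRIP1L (0.982), GRAMD1C (0.978), CNST (0.980) and NATD1 (0.989). Of the 30 genes ranked in the top 3 of a member, 13 were still there without the array that stands apart, where MCOLN3 (0.984 with FOXO1) and RPGRIP1L (0.984 with BCL6) had left the top 3, and the other 8 of the 10 nearest genes had not.

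The compounds were compared with each other at IC50 and at IC90, which gave 6 comparisons that do not use DMSO. They use the same treated arrays as the differences from DMSO and share arrays with one another, and the p-values, from limma and adjusted over all 24658 tested probe sets, measure the spread between these samples of 1 cell line. At IC50, BKM120 and GDC0941 were the nearest pair, with 2 of the 34 probe sets called, both higher in BKM120, where 0.203% of all tested were called, 0.146% higher and 0.0568% lower. KLHL24 was higher in BKM120 by 0.43 (95% interval 0.25 to 0.62, adjusted p = 0.0269) and CCNG2 by 0.40 (95% interval 0.23 to 0.58, adjusted p = 0.0269). The other 8 genes were not called. For FOXO1 the difference with its 95% interval was 0.09 (-0.09 to 0.27), for BCL6 0.05 (-0.10 to 0.19) and for KLF6 0.01 (-0.08 to 0.10), so a difference of the size seen for KLHL24 lies outside these intervals. Leaving out replicate 1, 2 or 4 of either group in turn took the count of 2 down, to 0 at the least. Without the array that stands apart, which is in neither group, the count stayed at 2. The share of all tested that was called was then 2.51%, in place of 0.203%.

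BEZ235 at IC50 was higher than GDC0941 for the brightest probe sets of FOXO1, FOXO3, KLHL24, YPEL3, BCL6 and KLF6, and 13 of the 34 were called, 12 of them higher in BEZ235 (29% of all tested were called, 13.1% higher and 15.9% lower). BCL6 differed by 0.66 (95% interval 0.52 to 0.80, adjusted p = 5.43e-09) and KLHL24 by 0.65 (95% interval 0.46 to 0.83, adjusted p = 1.58e-06). FOXO1 differed by 0.34 (95% interval 0.16 to 0.52, adjusted p = 0.00317). Without the array that stands apart, BCL6 gave 0.58 (adjusted p = 6.38e-09), KLHL24 0.73 (adjusted p = 3.94e-08) and FOXO1 0.48 (adjusted p = 1.23e-06). Smaller differences were 0.34 (adjusted p = 0.00992) for YPEL3, 0.21 (adjusted p = 0.0194) for FOXO3 and 0.13 (adjusted p = 0.0304) for KLF6, and without that array 0.34 (adjusted p = 0.0113), 0.26 (adjusted p = 0.00395) and 0.12 (adjusted p = 0.0567). The KLF6 call was lost in 8 of the 15 alternatives run for it, leaving out that array among them. CCNG2, with 0.06 (-0.11 to 0.24), FOXO4, with -0.25 (-0.56 to 0.05), PINK1, with -0.13 (-0.33 to 0.07), and FBXO32, with 0.18 (-0.02 to 0.39), were not called. With all arrays, 2 dimmer FBXO32 probe sets were called higher in BEZ235, by 0.60 (adjusted p = 3.41e-07) and 0.37 (adjusted p = 7.01e-05). Without the array that stands apart the brightest FBXO32 probe set was called higher in BEZ235, 0.39 (adjusted p = 2.31e-06). CCNG2, with 0.04 (-0.14 to 0.22), FOXO4, with -0.01 (-0.25 to 0.23), and PINK1, with -0.10 (-0.31 to 0.11), were not called without it. The count without it was 18 of the 34, all higher in BEZ235, where 28.2% of all tested were called.

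Between BKM120 and BEZ235 at IC50, 11 of the 34 were called (26.7% of all tested, 15% higher and 11.7% lower), 4 higher and 7 lower in BKM120. BCL6 was lower in BKM120, with -0.61 (95% interval -0.75 to -0.47, adjusted p = 3.77e-08), and CCNG2 was higher, by 0.34 (95% interval 0.17 to 0.51, adjusted p = 0.0034). The values without the array that stands apart were -0.53 (adjusted p = 5.06e-08) for BCL6 and 0.37 (adjusted p = 0.00192) for CCNG2. FOXO1 was lower in BKM120, -0.25 (adjusted p = 0.0291), and -0.39 (adjusted p = 4.49e-05) without that array, but the call was lost in 6 of the 16 alternatives, with an adjusted p of up to 0.357 and a difference as small as -0.16. FOXO4 was higher in BKM120, 0.40 (adjusted p = 0.0421), but 0.16 (adjusted p = 0.333) without that array, and its call was lost in 7 of the 16 alternatives. With all arrays, 2 dimmer KLHL24 probe sets were called lower in BKM120, -0.46 (adjusted p = 0.00317) and -0.43 (adjusted p = 0.0161). So were 2 dimmer ones of FBXO32, -0.43 (adjusted p = 7.27e-05) and -0.30 (adjusted p = 0.00122). Without the array that stands apart the brightest probe sets of KLHL24 and FBXO32 were called lower in BKM120, -0.30 (adjusted p = 0.0103) and -0.31 (adjusted p = 0.000123). The count then was 20 of the 34, 2 higher and 18 lower in BKM120, where 25.5% of all tested were called.

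At IC90, 18 of the 34 were called for BKM120 with BEZ235, 9 for BKM120 with GDC0941 and 21 for BEZ235 with GDC0941. In the fit without the array that stands apart the counts were 23, 12 and 26, with 48.1%, 35% and 46% of all tested called. BEZ235 exceeded GDC0941 in 19 of the 34 probe sets and was below it in 2 (36.9% of all tested were called, 18.7% higher and 18.2% lower). All 10 genes were called by their brightest probe set, 8 of them higher in BEZ235. BCL6 differed by 0.81 (95% interval 0.67 to 0.95, adjusted p = 1.04e-11), KLHL24 by 0.68 (95% interval 0.50 to 0.87, adjusted p = 2.2e-07) and FOXO1 by 0.66 (95% interval 0.48 to 0.84, adjusted p = 1.56e-07). FBXO32 gave 0.48 (adjusted p = 0.000222), FOXO3 0.28 (adjusted p = 0.00139), CCNG2 0.25 (adjusted p = 0.0182), YPEL3 0.25 (adjusted p = 0.0458) and KLF6 0.23 (adjusted p = 9.04e-05). Of the 4 CCNG2 probe sets only the brightest was called, and 1 went the other way, -0.29 (95% interval -0.57 to -0.02, adjusted p = 0.0902). The other 2 of the 10 genes, FOXO4 and PINK1, were lower in BEZ235, with -0.41 (95% interval -0.71 to -0.10, adjusted p = 0.0306) and -0.27 (95% interval -0.47 to -0.07, adjusted p = 0.0322). The calls of YPEL3, PINK1 and FOXO4 were lost in 8, 5 and 4 of the 17 alternatives run for each, the replicate block among those of YPEL3.

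BKM120 at IC90 (max) was below BEZ235 at IC90 in 16 of the 34 probe sets and above it in 2 (39.1% of all tested were called, 18.4% higher and 20.7% lower). KLHL24 differed by -0.86 (95% interval -1.05 to -0.68, adjusted p = 1.09e-09), FOXO1 by -0.71 (95% interval -0.89 to -0.54, adjusted p = 2.53e-08) and YPEL3 by -0.50 (95% interval -0.70 to -0.30, adjusted p = 9.42e-05). FBXO32, FOXO3 and KLF6 were also lower in BKM120, with -0.39 (adjusted p = 0.00229), -0.34 (adjusted p = 0.000121) and -0.34 (adjusted p = 8.1e-08). PINK1 was higher in BKM120, by 0.47 (95% interval 0.27 to 0.67, adjusted p = 0.000176). BCL6 was not called, and the interval of its difference, 0.02 (-0.12 to 0.16), holds none of the differences called among the brightest probe sets here. FOXO4 and CCNG2 were not called either, with 0.26 (-0.04 to 0.57) and 0.12 (-0.06 to 0.29), though FOXO4 passed without the array that stands apart, 0.26 (adjusted p = 0.0477).

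BKM120 at IC90 (max) and GDC0941 at IC90 differed in 9 of the 34 probe sets, 8 of them higher in BKM120 (26.4% of all tested were called, 12% higher and 14.4% lower). By the brightest probe sets, BCL6 was higher in BKM120 by 0.83 (95% interval 0.69 to 0.97, adjusted p = 6.1e-12) and CCNG2 by 0.37 (95% interval 0.20 to 0.54, adjusted p = 0.000943), and the other 8 were not called. Of the 7 FBXO32 probe sets, 2 dimmer ones were called higher in BKM120, by 0.54 (adjusted p = 9.9e-07) and 0.72 (adjusted p = 9.16e-05). The second of them had a mean log2 signal of 4.75. Without the array that stands apart YPEL3 and KLF6 were called lower in BKM120, -0.25 (adjusted p = 0.0382) and -0.11 (adjusted p = 0.0385). BCL6 in these groups read 365, 349.5, 394 and 391 with BKM120 and 208, 206, 197 and 205 with GDC0941, with no overlap. FOXO1, with -0.05 (-0.23 to 0.13), and KLHL24, with -0.18 (-0.37 to 0.00), were bounded below the difference seen for BCL6. Without BKM120 IC90 (max) replicate 3 or GDC0941 IC90 replicate 4 the count of 9 fell to 5 at the least. Across the 6 comparisons, the share of the 34 called was 32.4%, 5.88% and 38.2% at IC50 and 52.9%, 26.5% and 61.8% at IC90, for BKM120 with BEZ235, BKM120 with GDC0941 and BEZ235 with GDC0941.

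**Figure D3:**
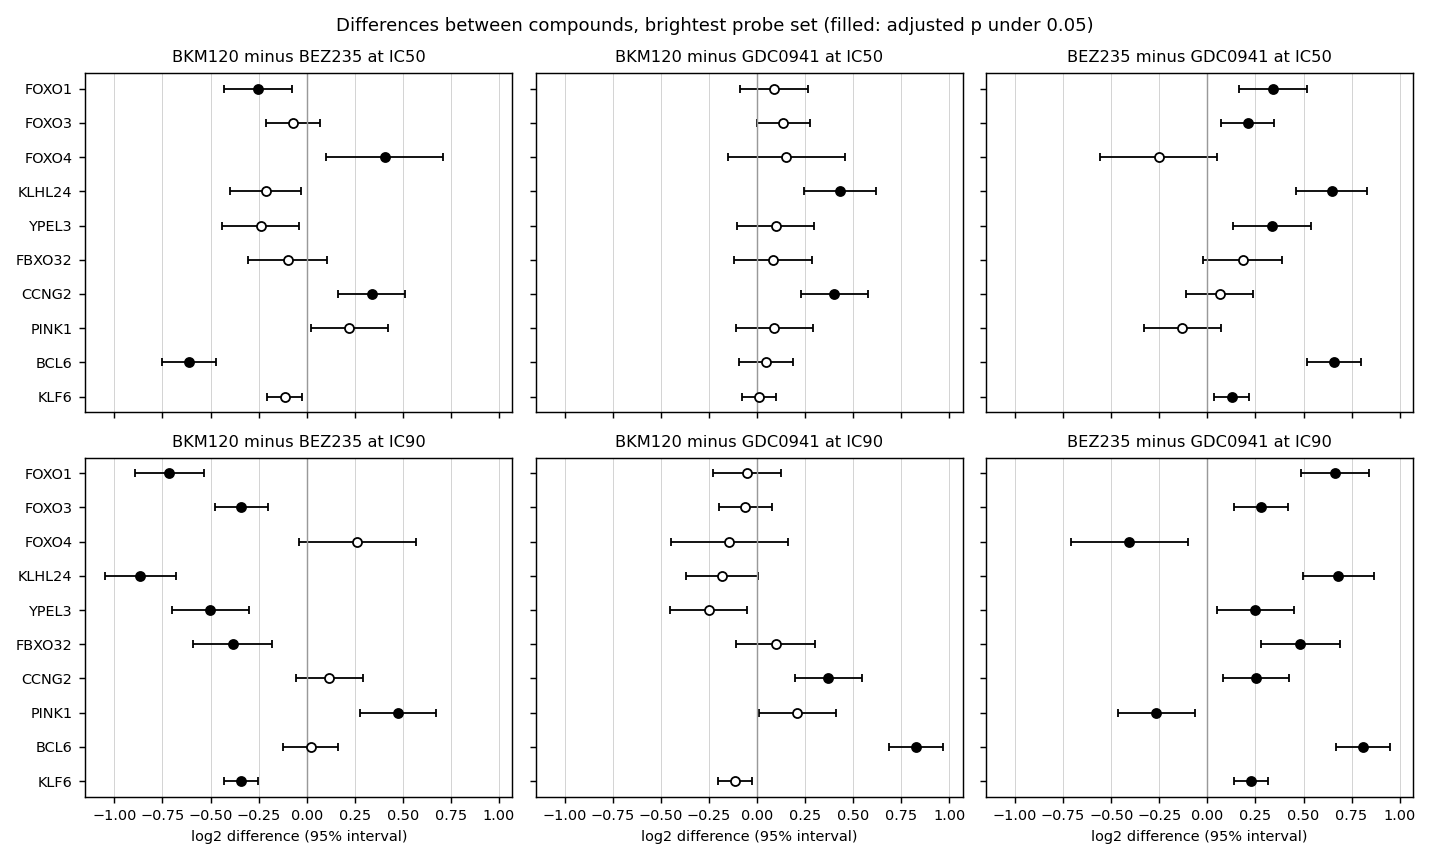
Log2 difference between compounds of the brightest probe set of each of the 10 genes, in 6 panels for the 3 pairs of compounds at IC50 and at IC90, with 95% intervals and filled points where the adjusted p was under 0.05. The panel of BKM120 against GDC0941 at IC50 has 2 filled points, KLHL24 and CCNG2, and the panel of BEZ235 against GDC0941 at IC90 has all 10 filled, with FOXO4 and PINK1 on the other side of 0.

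Probe sets of the same gene mostly moved together. Of the 24 tested probe sets beside the brightest ones, 21 had an r over 0.7 with it across the 10 group means, with a range of 0.532 to 0.985. The lowest were 1 probe set each of FBXO32 (0.532), YPEL3 (0.538) and KLHL24 (0.585). In BKM120 against BEZ235 at IC90, 6 of the 7 FBXO32 probe sets were lower in BKM120 and 4 were called lower, such as a dimmer one at -0.53 (adjusted p = 6.17e-08). The FBXO32 probe set with an r of 0.532 was the 1 higher in BKM120, 0.34 (adjusted p = 0.0452). Its mean log2 signal, 4.75, was near the lowest tested, 4.69. In BKM120 against GDC0941 at IC90, the same dimmer probe set of YPEL3 was higher, 0.48 (adjusted p = 0.0243), and so was that of KLHL24, 0.53 (adjusted p = 0.0381), where the brightest probe sets of both genes were not called and had differences below 0. A CCNG2 probe set was the one of the 34 called lower in BEZ235 than in GDC0941 at IC50, -0.47 (adjusted p = 0.0304), and the brightest was not called. A KLF6 probe set was the one called lower in BKM120 than in GDC0941 at IC90, -0.22 (adjusted p = 0.0484). Of 43 calls of such dimmer probe sets between compounds, 24 were lost under some alternative, among them those given here for FBXO32 (the higher one), YPEL3, KLHL24, CCNG2 and KLF6. The 3 probe sets below the filter, 1 each of CCNG2, BCL6 and KLF6, had differences from DMSO of -0.20 to -0.04, -0.22 to 0.02 and -0.09 to 0.12.

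FOXO targets outside the 10 genes did not move as a block. The lists were not divided by the direction in which FOXO proteins act on a gene. A rise or a fall is therefore not read here as more or less FOXO activity. Of 56 listed targets, 46 were tested by 1 probe set each. That probe set is the brightest of its gene, here and in the other lists. The shares of all tested take every tested probe set, dim ones and several of a gene included. They are therefore over an unlike set, and what this adds to a difference in share was not tested. At the highest levels against DMSO, 16 rose and 12 fell with BKM120, 24 rose and 13 fell with BEZ235, and 20 rose and 9 fell with GDC0941, at an adjusted p under 0.05. These counts are 60.9%, 80.4% and 63% of the 46, beside 15% higher and 15.6% lower of all tested probe sets with BKM120, 26.3% and 24.8% with BEZ235, and 20.1% and 18.1% with GDC0941, and the same shares of all apply to the lists below. The median difference of the 46 was 0.07, 0.22 and 0.16 for BKM120, BEZ235 and GDC0941, beside -0.01, 0.00 and 0.01 over all tested probe sets. At the lowest levels 14 rose and 7 fell with BKM120, 17 rose and 12 fell with BEZ235 (27 in all without the array that stands apart), and 9 rose and 6 fell with GDC0941, where 8.5% and 6.98%, 18.5% and 21.8%, and 6.49% and 4.93% of all tested rose and fell. All of these comparisons share the 4 DMSO arrays.

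Metabolic and stress targets, 11 of them tested, held the largest rise of the 46 targets at the highest level of each compound and the largest fall with BEZ235, while with BKM120 and GDC0941 the largest fall was that of IL7R, a receptor target. At the highest level 3 rose and 5 fell with BKM120, 5 rose and 4 fell with BEZ235, and 5 rose and 1 fell with GDC0941. TXNIP, which binds thioredoxin and limits glucose uptake, rose by 1.65 (SE 0.06, adjusted p = 7.84e-23) with BKM120, 2.31 (SE 0.06, adjusted p = 5.23e-28) with BEZ235 and 1.63 (SE 0.06, adjusted p = 1.25e-22) with GDC0941. SELENOP, a secreted selenium carrier, rose by 1.24, 1.75 and 1.76 (SE 0.18 each) with BKM120, BEZ235 and GDC0941 (adjusted p = 7.11e-07, 1.35e-10 and 2.91e-10). GLUL, glutamine synthetase, rose by 0.67, 1.04 and 1.12 (SE 0.06 each) in the same order (adjusted p = 1.86e-11, 4.44e-17 and 2.46e-17). The sestrins SESN3 and SESN1, stress proteins that restrain mTOR complex 1, went the other way with BEZ235, at -2.10 (SE 0.08, adjusted p = 2.9e-21) and -0.78 (SE 0.09, adjusted p = 1.39e-09). They also fell with BKM120, at -0.41 (SE 0.08, adjusted p = 0.000226) and -0.45 (SE 0.09, adjusted p = 8.28e-05). PPARGC1A, a coactivator of mitochondrial genes, was -1.05 (SE 0.12, adjusted p = 4.74e-09) with BKM120. With BKM120 this list stood at 8 risen and no call downwards at IC30, beside the 3 risen and 5 fallen at IC90 (max).

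Cell cycle and death targets (14 tested) were mixed, with 6 risen and 4 fallen for BKM120, 6 and 6 for BEZ235, and 6 and 5 for GDC0941 at the highest levels. PMAIP1, which encodes the death protein NOXA, fell with each compound, at -0.78 (SE 0.12, adjusted p = 2.68e-06) with BKM120, -1.02 (SE 0.12, adjusted p = 5.37e-09) with BEZ235 and -0.80 (SE 0.12, adjusted p = 1.29e-06) with GDC0941. CCNB1 (cyclin B1) rose with BKM120, 0.87 (SE 0.10, adjusted p = 1.86e-08), and fell with BEZ235, -0.61 (SE 0.10, adjusted p = 4.78e-06), and GDC0941, -0.54 (SE 0.10, adjusted p = 5.96e-05). PLK1, a mitotic kinase, rose by 0.57 (SE 0.06, adjusted p = 1.4e-09) with BKM120 and was -0.71 (SE 0.06, adjusted p = 6.02e-12) with GDC0941. CDKN1B, the cell cycle inhibitor p27, rose by 0.54 (SE 0.06, adjusted p = 1.05e-08) with BKM120. CITED2, a transcriptional coregulator, rose by 1.20 (SE 0.07, adjusted p = 9.2e-17) with BEZ235 and by 0.75 (SE 0.07, adjusted p = 5.52e-11) with GDC0941.

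Among receptors and signalling targets (11 tested), 4 rose and 3 fell with BKM120, 9 rose and 1 fell with BEZ235, and 7 rose and 2 fell with GDC0941. The receptor kinase genes IGF1R and ERBB2 rose with all 3 compounds, IGF1R by 0.47 (SE 0.12, adjusted p = 0.00201), 0.47 (SE 0.12, adjusted p = 0.0009) and 0.59 (SE 0.12, adjusted p = 0.000102) with BKM120, BEZ235 and GDC0941. ERBB2 gave 0.38 (SE 0.15, adjusted p = 0.0479), 0.42 (SE 0.15, adjusted p = 0.0176) and 0.53 (SE 0.15, adjusted p = 0.00437) in the same order. The ERBB2 call with BKM120 was lost in 9 of the 17 alternatives, leaving out any 1 DMSO array among them, and that with BEZ235 was lost without BEZ235 max replicate 1. IL7R, the interleukin-7 receptor, fell in all 3, at -1.28 (SE 0.14, adjusted p = 2.35e-09), -1.89 (SE 0.14, adjusted p = 3.25e-14) and -1.94 (SE 0.14, adjusted p = 4.71e-14) in the same order. Of the 10 autophagy and protein breakdown targets, 3 rose with BKM120, 4 rose and 2 fell with BEZ235, and 2 rose and 1 fell with GDC0941, where 6 in all were called without BEZ235 IC50 replicate 3. TRIM63, the partner of FBXO32 in muscle atrophy known as MuRF1, rose by 1.07 (SE 0.11, adjusted p = 1.37e-09) with GDC0941. It also rose with BKM120 (0.43, adjusted p = 0.0031) and BEZ235 (0.46, adjusted p = 0.000827). ATG14, a subunit of the autophagy lipid kinase, rose by 0.95 (SE 0.06, adjusted p = 2.97e-15) with BEZ235. It also rose with BKM120 (0.56, adjusted p = 6.53e-09) and GDC0941 (0.59, adjusted p = 1.23e-09). ATG5, an autophagy conjugation protein, was -0.71 (SE 0.13, adjusted p = 1.97e-05) with BEZ235 and -0.57 (SE 0.13, adjusted p = 0.000525) with GDC0941. With a pseudocount of 1 or 64 in place of 16, the difference of TRIM63 with GDC0941 was 1.75 or 0.49, that of SELENOP with BEZ235 2.53 or 0.94 and that of IL7R with BEZ235 -2.87 or -0.99.

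Paralogs of the 10 genes moved upwards where they were called. Of 8 tested, 4 rose with BKM120 IC90 (max), 7 with BEZ235 max and 7 with GDC0941 max, and the others were not called. Of all tested probe sets 15%, 26.3% and 20.1% rose with the same treatments. YPEL1 rose by 1.00 (SE 0.16, adjusted p = 4.46e-06), 1.52 (SE 0.16, adjusted p = 2.72e-10) and 1.20 (SE 0.16, adjusted p = 1.1e-07) with BKM120, BEZ235 and GDC0941. FBXO25, the near relative of FBXO32, rose by 1.24 (SE 0.14, adjusted p = 3.21e-09) with BEZ235, and YPEL5 by 0.90 (SE 0.05, adjusted p = 4.83e-17). FBXO25 and YPEL5 were also called higher with BKM120, by 0.54 and 0.46, and with GDC0941, by 0.68 and 0.69. Of 26 regulators of FOXO proteins tested, 4 rose with BKM120, 5 rose and 9 fell with BEZ235, and 3 rose and 3 fell with GDC0941. These are 15.4%, 53.8% and 23.1% of the regulators, beside the 15%, 26.3% and 20.1% of all tested probe sets that rose and the 15.6%, 24.8% and 18.1% that fell, so the share called was near that of all tested with BEZ235 and below it with BKM120 and GDC0941. YWHAH, a 14-3-3 protein, fell with BEZ235, -0.67 (SE 0.09, adjusted p = 3.62e-08), as did the kinase AKT2, -0.52 (SE 0.12, adjusted p = 0.000291). IKBKB, a kinase that can phosphorylate FOXO3, rose by 0.66 (SE 0.08, adjusted p = 9.64e-09) with BEZ235. It also rose with BKM120 (0.26, adjusted p = 0.012) and GDC0941 (0.25, adjusted p = 0.012). FOXM1, a forkhead factor of dividing cells, rose by 0.41 (SE 0.07, adjusted p = 2.4e-05) with BKM120 and was -0.43 (SE 0.07, adjusted p = 4.27e-06) with BEZ235.

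Between compounds, calls among the 46 targets went in both directions wherever there were any. At IC50, BKM120 against GDC0941 gave 0 calls by limma, where 0.203% of all tested were called, and 8 of the 46 had an unadjusted p under 0.05. In a fit without the array that stands apart 2 were called, where 2.51% of all tested were called. BKM120 against BEZ235 gave 8 higher and 8 lower, and BEZ235 against GDC0941 gave 10 higher and 9 lower, and without that array the totals were 21 and 18. Of all tested, 26.7% and 29% were called in these comparisons, beside 34.8% and 41.3% of the targets. As above, the targets are 1 bright probe set per gene, and the shares of all take every tested probe set. At IC90, 10 were higher and 17 lower in BKM120 than in BEZ235, 8 higher and 11 lower in BKM120 than in GDC0941, and 15 higher and 11 lower in BEZ235 than in GDC0941, which is 58.7%, 41.3% and 56.5% of the targets beside 39.1%, 26.4% and 36.9% of all tested. The metabolic and stress targets were 1 higher and 8 lower of 11 in BKM120 against GDC0941, with a median of -0.24. TXNIP was the one higher, 0.74 (adjusted p = 3.96e-13), and PPARGC1A was -1.03 (adjusted p = 5.54e-09). CCNB1 and PLK1 were higher in BKM120 at IC90 (max) than in BEZ235, by 1.37 (adjusted p = 1.78e-13) and 0.92 (adjusted p = 4.28e-15). SESN3 was lower in BEZ235 than in GDC0941, -1.46 (adjusted p = 2.68e-16). Of the 8 paralogs, 6 were lower in BKM120 than in BEZ235 and 6 higher in BEZ235 than in GDC0941, such as FBXO25 with 0.89 (adjusted p = 4.65e-06) and YPEL5 with 0.34 (adjusted p = 1.87e-06).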

How the data were processed

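RNA of A2058 melanoma cells was measured on 40 one-colour arrays of 54675 probe sets, 4 in each of 10 groups taken from the sample labels. Per the labels, 50 ng of total RNA was amplified with a NuGEN Ovation kit and labelled with biotin. The deposited values are linear intensities made with MAS5, per the submitters' processing notes (no version is named there), and the mean of each array without its highest and lowest 2% was 150. Of the probe sets, 41097 had 1 gene symbol, 1801 several and 11777 none, by the platform's annotation. Values were transformed as log2(intensity + 16), and the 24658 probe sets above the 40th percentile of mean signal (9.77 as a geometric mean intensity) were tested. A mean for each group was fitted over all arrays with limma 3.58.1 (lmFit, eBayes with a trend, 30 residual degrees of freedom) in R 4.3.3, with Benjamini-Hochberg adjustment in each comparison and a threshold of 0.05. The fit was tested on simulated data. The number of arrays limits the precision.

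The members, lists and tests were chosen with earlier results of these data known. Text names all 10 members, up to 6 called genes of each list per compound at its highest level, and up to 3 genes most alike each member. Each list gene is represented by its brightest probe set, with cross-hybridising designs used where no other exists. The labels call the replicates biological, from a single cell line. The replicate numbers did not pair samples, since 17 of 180 pairs of arrays with the same number in different groups had deviations correlated over 0.1, and 63 of 540 with different numbers. Alternatives were the pseudocount, the filter, quantile normalization, 1 probe set per gene, a replicate block, a fit of the 2 groups alone and leaving out arrays. Promoter windows come from RefSeq (GRCh38.p14).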

Additional observations from a re-analysis of the deposited data

Results flagged for a closer look

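Among 100 groups of 4 arrays (10 genes in 10 groups), 3 held an array whose gap to the nearest of the others, divided by the range of the group, passed Dixon's 95% critical value, and chance gives about 1 in 20 groups. FOXO4 in GDC0941 max replicate 4 had a log2 value of 7.296, against 7.66 to 7.70 in the other 3 arrays. In BEZ235 IC50 replicate 3, BCL6 was at 8.494, against 8.14 to 8.20 in the other 3, and FBXO32 was at 8.645, against 9.43 to 9.56. The last array is the one with a GAPDH 3′ to 5′ ratio of 3.44, and its part in these values was not tested.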

How the results depend on the processing

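Between compounds, 31 calls of members by the brightest probe set, 43 by dimmer ones and 154 of list genes were followed, and against DMSO 98 calls of list genes at the highest levels, and 0 of these changed direction under the alternatives. Quantile normalization, a pseudocount of 1 or 64, no filter on dim probe sets and a filter at the 60th percentile kept every count within 1.5 times. With 1 probe set per gene, which leaves 10 probe sets in place of 34, the members past the threshold against DMSO were 8, 9 and 8 along BKM120, 8, 8 and 8 along BEZ235 and 7, 8 and 10 along GDC0941, and between compounds 4 for BKM120 and BEZ235 and 5 for BEZ235 and GDC0941 at IC50, and 7, 3 and 10 for BKM120 with BEZ235, BKM120 with GDC0941 and BEZ235 with GDC0941 at IC90. Fitting the arrays of the 2 groups alone, which leaves 8 arrays a fit, gave 22 members for GDC0941 IC50 against DMSO and 19 targets for BEZ235 IC50 against DMSO. In the same fits at IC50 the called members and targets were 2 and 6 for BKM120 and BEZ235, and 5 and 9 for BEZ235 and GDC0941, and 2 targets were called for BKM120 and GDC0941. The replicate block (the number as a factor) gave 12 in place of 11 for BKM120 and BEZ235 at IC50 and 20 in place of 21 for BEZ235 and GDC0941 at IC90, and kept all 30 counts within 1.5 times, but replicates share only a number. The share of all tested that was called in these settings is not reported here. These counts therefore show how calls moved with the fit, and not how the genes compare with all tested.

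Leaving out 1 array at a time gave 11 to 23 members for GDC0941 IC50 against DMSO, 9 to 20 for BKM120 and BEZ235 at IC50, 0 to 2 for BKM120 and GDC0941 at IC50 and 5 to 12 at IC90, and 0 to 2 targets for BKM120 and GDC0941 at IC50. The upper ends of 23, 20 and 12 came from leaving out BEZ235 IC50 replicate 3, where 18.9%, 25.5% and 35% of all tested were called. So did the 2 targets, where 2.51% of all tested were called. Without that array 13 of the 30 most alike genes were kept. For the other arrays left out, the share of all tested is not reported here. Of the 31 calls of members between compounds by the brightest probe sets, 19 held under every alternative and 12 were lost in some. Those lost include both calls between BKM120 and GDC0941 at IC50, with adjusted p up to 0.158 for CCNG2 and 0.19 for KLHL24, those of FOXO1 (up to 0.357) and FOXO4 (up to 0.351) for BKM120 and BEZ235 at IC50, and that of YPEL3 (up to 0.166) for BEZ235 and GDC0941 at IC90, which the replicate block also ends. The cause was not tested. Of the calls of list genes, 86 of 98 at the highest levels and 95 of 154 between compounds held throughout, as did 19 of the 43 by dimmer probe sets. A pseudocount of 1 or 64 moved the size of some list genes, such as TRIM63, by over 1.5 times. The number of arrays, 4 in a group, limits how small a difference can be called.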
